A study of Homo sapiens with 8 samples.

Results

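The BCL2 family genes followed here are MCL1 and BCL2L1, which encode anti-apoptotic proteins, BAX and BAK1, which encode the pore-forming effectors, and BID, BCL2L11, PMAIP1, BBC3, BAD and BIK, which encode BH3-only proteins. They were chosen by name from a fixed list of 10 gene symbols. All 10 were present among the 14668 gene symbols of the count table. The table holds 8 libraries of T3M4, an established cell line from a human pancreatic cancer. Cells carrying a guide RNA against METTL13 (sgMETTL13), a methyltransferase of the translation elongation factor eEF1A, were set against cells carrying a non-targeting guide (sgControl). Cells of every group were starved of serum for 18 h, after which 10% FBS was added, and they were lysed 2 h later. Each arm had 2 libraries of mRNA fragments protected by ribosomes (footprints), which were pulled down as active ribosomes with a puromycin analog, and 2 stranded libraries of poly(A) RNA. The labels do not say whether the cells were a pool or a clone, nor whether the 2 libraries of a group came from different cultures, and a p-value here therefore reflects the spread among libraries alone.

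BCL2 family proteins decide whether the outer mitochondrial membrane is permeabilised. Anti-apoptotic members bind and hold the effectors BAX and BAK1, and BH3-only proteins either occupy the anti-apoptotic members or activate the effectors directly. Opened pores release cytochrome c, which leads to caspase activation. MCL1 is a short-lived protein that many carcinoma cells depend on, so its supply is sensitive to how much of it is being made.

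Footprint libraries held 6063885 to 9837253 counts and RNA libraries 20860953 to 48353722. METTL13 itself read 20.1 and 26.2 CPM (counts scaled to a common library size after TMM normalisation) in sgMETTL13 footprints, against 65.1 and 57.7 CPM in sgControl footprints, and 25.2 and 35.0 CPM in sgMETTL13 mRNA, against 89.7 and 71.4 CPM in sgControl mRNA. All 7 epithelial markers examined had counts in every group, summing to 1672 and 1742 CPM in sgMETTL13 footprints and to 1641 and 1723 CPM in sgControl footprints. In footprints 5 of 6 fibroblast markers were in the table and summed to 21.6 to 21.7 CPM in sgMETTL13 and 22.2 to 25.1 CPM in sgControl, with COL1A2 at 0 in both arms, PDGFRB at 0 in sgMETTL13 and COL3A1 at 0 in sgControl. The 3 of 6 leukocyte markers in the table summed to at most 1.86 CPM, with PTPRC at 0 in sgControl. The 3 endothelial markers summed to at most 1.20 CPM. COL1A1 made up most of the fibroblast footprints, at means of 20.7 CPM in sgMETTL13 and 23.0 CPM in sgControl. In mRNA the epithelial markers summed to 2872 to 4188 CPM in sgMETTL13 and 3625 to 4165 CPM in sgControl. The fibroblast markers there summed to 23.7 to 32.9 CPM and 27.2 to 32.9 CPM, mostly COL1A1. Leukocyte markers summed to 20.6 to 32.3 CPM and 25.4 to 49.3 CPM, mostly CD68, and endothelial markers to at most 1.59 CPM. The part of these markers in the results was not tested. The replicate pair that lay farthest apart was the sgMETTL13 RNA pair, with an SD of the log2 difference over genes of 0.847, against 0.365 for the sgControl RNA replicates, 0.277 for sgMETTL13 footprints and 0.326 for sgControl footprints.

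Of the 10 genes, 1 had fewer footprints in sgMETTL13 cells (BAX), 1 had more (BIK), and none passed the test in mRNA or in footprints per mRNA. The footprint test (edgeR quasi-likelihood test, adjusted p below 0.05 over all genes tested) covered 7 of them, because BAK1, BCL2L11 and BBC3 had too few footprints. The 2 calls among 7 stand beside a call rate of 21.0% of the 10714 genes tested, 8.94% higher and 12.0% lower. The median log2 fold change of the 7 was -0.15, and that of all genes tested was 0.01. At an unadjusted p below 0.05 there were 3 of the 7 (BAX, BID and BIK), against 34.6% of all genes tested. The arms did not overlap for 4 of the 7, with BIK higher and BAX, BID and BAD lower, against 64.1% of all genes tested, 32.0% higher and 32.1% lower. In bulk lysates, fewer cells with an RNA and less of it per cell cannot be told apart.

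**Figure D1:**
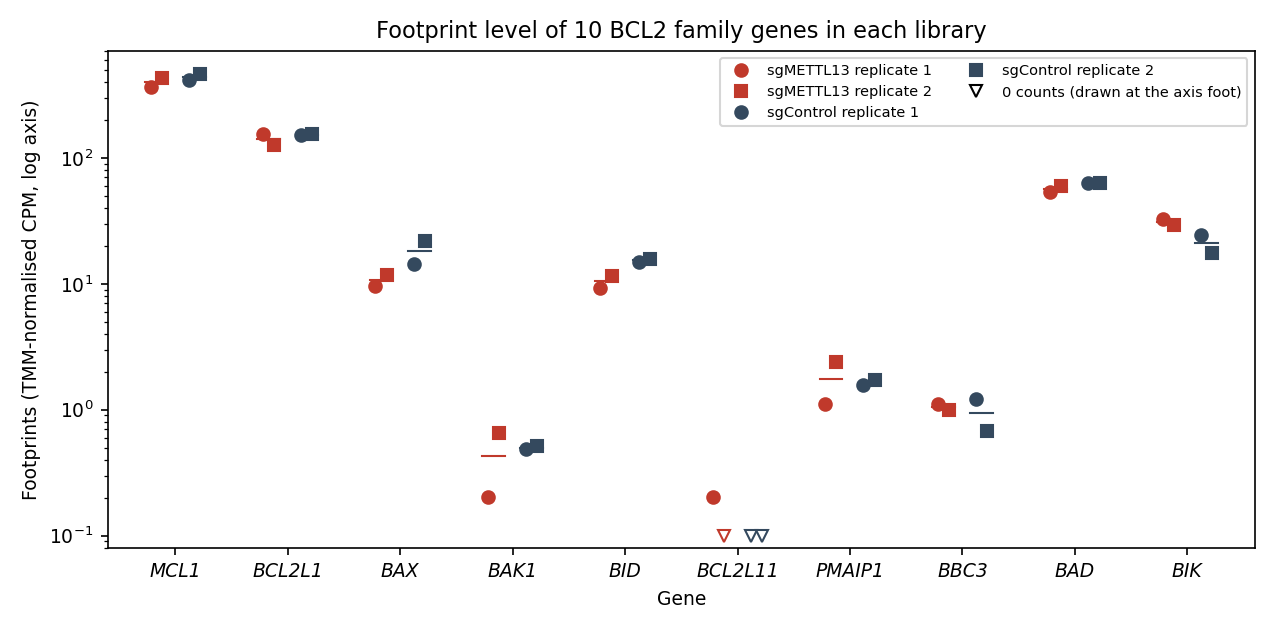
Footprint level of each of the 10 genes in TMM-normalised CPM (log axis), with sgMETTL13 libraries left of sgControl libraries. Points are single libraries, short lines are the means of 2 libraries, and open triangles are libraries with 0 counts. BAX and BID lie lower and BIK lies higher in both sgMETTL13 libraries, and BAK1 and BCL2L11 lie below 1 CPM in all 4.

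Neither anti-apoptotic gene passed the test in footprints. MCL1, on chromosome 1 at 150574558 to 150579610 (GRCh38), had 367 and 428 CPM of footprints in sgMETTL13, against 418 and 464 CPM in sgControl. These ranges overlapped, and the log2 fold change was -0.15 with an SE of 0.124 (n = 2 per arm, edgeR adjusted p = 0.411). MCL1 held 58.3% and 63.8% of the footprint counts of the 10 genes in sgMETTL13, and 60.7% and 62.7% in sgControl, as shares of counts with no scaling for length. BCL2L1, which encodes BCL-XL (chromosome 20, 31664452 to 31723963), had 154 and 126 CPM in sgMETTL13 and 151 and 155 CPM in sgControl footprints. It also overlapped between arms, and its log2 fold change was -0.12 with an SE of 0.134 (edgeR adjusted p = 0.556). A long non-coding antisense gene, BCL2L1-AS1, overlaps BCL2L1, and the strand setting of the counting is not given in the sources used here.

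MCL1 mRNA was high in a single library. It read 1076 and 455 CPM in sgMETTL13 replicates 1 and 2, against 536 and 398 CPM in sgControl replicates 1 and 2. Its fitted mRNA difference in log2 was 0.71 with an SE of 0.423 (edgeR adjusted p = 1.00). That difference became 1.20 when sgMETTL13 RNA replicate 2 was left out, and 0.03 when replicate 1 was. Footprints per mRNA of MCL1, fitted as an interaction between arm and assay across the 8 libraries, differed by -0.84 (SE 0.502, edgeR adjusted p = 0.999), beside a median of -0.11 over all genes tested. The same library decided that value, which was -1.32 without sgMETTL13 RNA replicate 2 and -0.20 without replicate 1. BCL2L1 mRNA read 177 and 235 CPM in sgMETTL13 and 199.6 and 268 CPM in sgControl, with overlapping arms and a log2 fold change of -0.18 (SE 0.353).

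The genes whose profile lay closest to MCL1 over all 8 libraries, out of 10445 searched, were PCDH17, DPH3 and APIP. Their root mean square distances were 0.08 on the log2(CPM + 0.5) scale after centring within each assay, against a median distance of 0.45. For BAX the closest were SYTL1, LBHD1 and CRELD2, at 0.05 to 0.08 against a median of 0.43. The largest deviation in the MCL1 profile was that of sgMETTL13 RNA replicate 1, at 1076 CPM, so that library weighs heavily in its distances. Shared regulation was not tested for either gene.

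**Figure D2:**
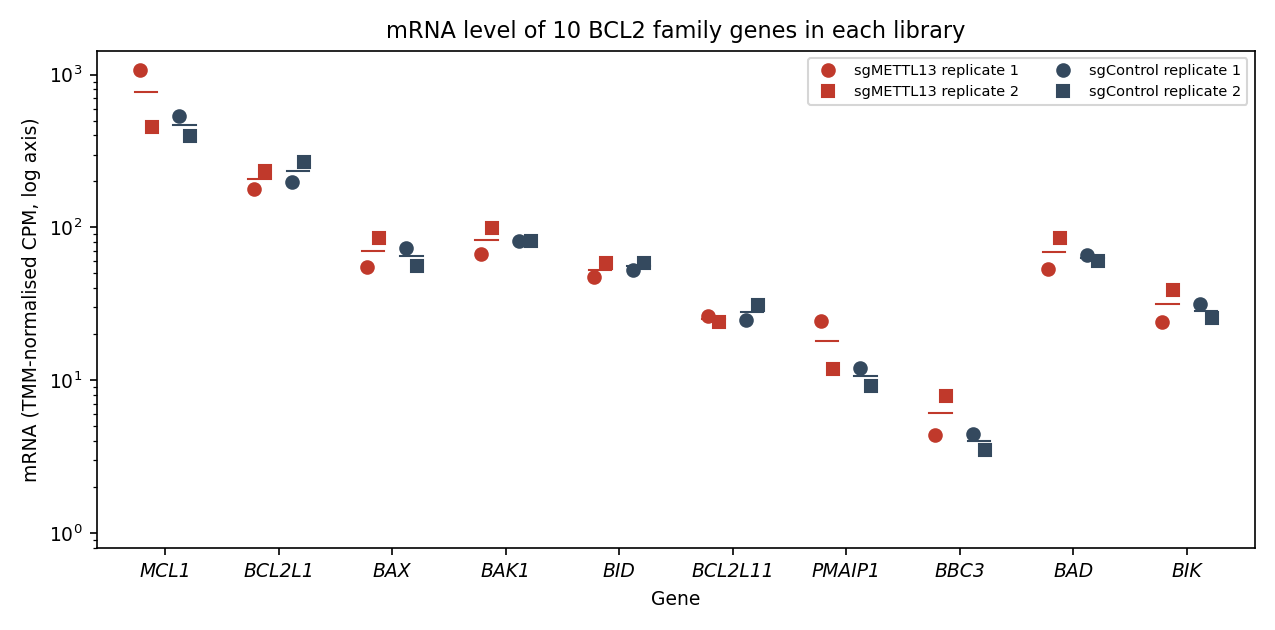
mRNA level of each of the 10 genes in TMM-normalised CPM (log axis), with sgMETTL13 libraries left of sgControl libraries, points for single libraries and short lines for means of 2 libraries. MCL1 and PMAIP1 stand out in sgMETTL13 replicate 1, at 1076 and 24.3 CPM. BCL2L1, BAX, BAK1, BID, BBC3, BAD and BIK are higher in sgMETTL13 replicate 2.

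Of the effectors, BAX fell in footprints. BAX, on chromosome 19 at 48954875 to 48961798, oligomerises in the outer mitochondrial membrane. It had 9.64 and 11.7 CPM in sgMETTL13 footprints, against 14.3 and 21.9 CPM in sgControl footprints, and the arms did not overlap. The log2 fold change was -0.74 (SE 0.219, edgeR adjusted p = 0.0165), from 95 and 107 counts in sgMETTL13 and 118 and 128 counts in sgControl. The call was lost without sgControl replicate 2 (-0.42), without sgMETTL13 replicate 1 (-0.61), with DESeq2 (adjusted p = 0.0574) and with all 8 libraries in one edgeR model (adjusted p = 0.564). BAX mRNA read 55.1 and 84.7 CPM in sgMETTL13 and 73.2 and 56.1 CPM in sgControl, with a log2 fold change of 0.11 (SE 0.399). Footprints per mRNA of BAX differed by -0.86 (SE 0.472, unadjusted p = 0.101, edgeR adjusted p = 0.999), so the footprint and mRNA changes were not shown to differ from each other.

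The 250 bases before the annotated BAX start are shown because BAX fell in footprints and its promoter holds a run of one motif, a choice made after the values were seen. Capitals mark CACGTG, the E-box that MYC and MAX bind, which reads the same on both strands and occurs 4 times here, with no overlap with the other motifs searched. The sequence is from RefSeq (GRCh38.p14, plus strand, chr19:48954625-48954874).
BAX: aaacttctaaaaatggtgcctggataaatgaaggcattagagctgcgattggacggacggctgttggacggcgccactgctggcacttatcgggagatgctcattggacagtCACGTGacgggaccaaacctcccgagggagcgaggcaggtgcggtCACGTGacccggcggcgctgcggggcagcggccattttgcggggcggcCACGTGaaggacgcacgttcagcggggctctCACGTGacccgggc
At least 1 CACGTG occurred in 7.91% of 17352 promoter windows of the same length from genes of the count table. It occurred 4 or more times in 0.0231% of them, which is 4 windows with that of BAX included. These shares make no allowance for the choice of this motif among those searched. BAX mRNA did not pass (log2 fold change 0.11, SE 0.399), and a link between the motif and the BAX footprints was not tested. Among the 8 members with a promoter entry, BAX, BBC3 and BID had the motif in at least 1 entry, BID in only some of its entries. Members are counted by gene and the percentages by window, so they are not directly comparable. MCL1 and BIK had no entry.

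BAK1, the other effector (chromosome 6, 33572552 to 33580276), had mRNA but almost no footprints. It had 2 and 6 footprint counts in sgMETTL13 and 4 and 3 in sgControl, 15 in all, beside 3160 and 3962 mRNA counts in sgMETTL13 and 3042 and 1687 in sgControl. BAK1 mRNA read 66.7 and 98.8 CPM in sgMETTL13 and 81.8 and 81.2 CPM in sgControl, with a log2 fold change of 0.02 (SE 0.377). Its footprint CPM over mRNA CPM was 0.00520 in sgMETTL13 and 0.00611 in sgControl, 130.2 and 121 times below the median gene. RefSeq lists 2 numbered BAK1 pseudogenes, BAK1P1 and BAK1P2, and whether reads with several matches were counted is not given in the sources used here. Their part in the low footprint count was not tested.

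Among the BH3-only genes, BIK rose in footprints. BIK, on chromosome 22 at 43110750 to 43129712, encodes a protein of the endoplasmic reticulum that binds anti-apoptotic members. It had 32.7 and 29.3 CPM in sgMETTL13 footprints, against 24.5 and 17.4 CPM in sgControl footprints, and the arms did not overlap. The log2 fold change was 0.55 (SE 0.181, edgeR adjusted p = 0.0298). Each of 3 libraries was needed for the call, which was lost without sgMETTL13 replicate 1 (0.46), sgMETTL13 replicate 2 (0.63) or sgControl replicate 2 (0.33), with DESeq2 (adjusted p = 0.0820) and with all 8 libraries in one edgeR model (adjusted p = 0.647). Without sgControl replicate 1 the value was 0.83. BIK mRNA read 24.2 and 38.7 CPM in sgMETTL13 and 31.3 and 25.4 CPM in sgControl (log2 fold change 0.15, SE 0.434), and footprints per mRNA differed by 0.42 (SE 0.455).

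BID, the BH3-only protein that caspase-8 cleaves (chromosome 22, 17734138 to 17774665), had 9.34 and 11.5 CPM of footprints in sgMETTL13 and 15.0 and 15.7 CPM in sgControl. The arms did not overlap, but the log2 fold change of -0.56 (SE 0.209) missed the threshold (edgeR adjusted p = 0.0555). BAD, a BH3-only protein that growth factor signalling holds inactive by phosphorylation (chromosome 11, 64269828 to 64284704), had 53.9 and 59.7 CPM in sgMETTL13 and 62.7 and 63.2 CPM in sgControl, which gave -0.15 in log2 with an SE of 0.144 (edgeR adjusted p = 0.494). The BAD arms did not overlap either. Its span shares 14174 bases with GPR137 on the opposite strand. The mRNA arms overlapped for BID, with a log2 fold change of -0.07 (SE 0.388), and for BAD, with 0.13 (SE 0.398).

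PMAIP1, which encodes NOXA, the BH3-only partner of MCL1 (chromosome 18, 59899996 to 59904305), had few footprints in either arm. It read 1.12 and 2.41 CPM in sgMETTL13 footprints, from 11 and 22 counts, against 1.57 and 1.71 CPM in sgControl footprints, from 13 and 10 counts. The sgControl libraries lay between the sgMETTL13 libraries (log2 fold change 0.10, SE 0.429, edgeR adjusted p = 0.897). PMAIP1 mRNA read 24.3 and 11.9 CPM in sgMETTL13 replicates 1 and 2 and 12.1 and 9.15 CPM in sgControl replicates 1 and 2, so replicate 1 of sgMETTL13 stood above the rest, as it did for MCL1. Its fitted mRNA difference of 0.77 was the largest of the 10 genes (SE 0.488, edgeR adjusted p = 1.00). With sgMETTL13 RNA replicate 2 left out it was 1.18, and with replicate 1 left out it was 0.22.

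The 250 bases before the PMAIP1 start are shown because PMAIP1 and MCL1 stood high together in 1 RNA library. The choice of gene and motif was made after the values were seen. In sgMETTL13 RNA the difference of replicate 1 from replicate 2 was at the 80.4 percentile of genes tested for PMAIP1 and 85.5 for MCL1. In sgControl RNA it was at the 86.1 and 88.3 percentiles. Capitals mark ACGTCA, the opposite-strand reading of TGACGT, the half-site of the cyclic AMP response element. It occurs once and overlaps no other motif searched. The sequence is from RefSeq (GRCh38.p14, plus strand, chr18:59899746-59899995).
PMAIP1: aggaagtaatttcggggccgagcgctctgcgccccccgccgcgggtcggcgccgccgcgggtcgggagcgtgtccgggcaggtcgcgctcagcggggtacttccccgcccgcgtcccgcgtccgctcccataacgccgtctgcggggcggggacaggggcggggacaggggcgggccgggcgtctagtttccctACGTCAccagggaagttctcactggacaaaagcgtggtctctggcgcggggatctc
TGACGT or ACGTCA occurred in 8.80% of the 17352 windows. Among the 8 members with an entry, BAD and PMAIP1 had it. In sgMETTL13 RNA the difference of replicate 1 from replicate 2 was at the 4.36 percentile for BAD, opposite to PMAIP1. MCL1 had no promoter entry, so a motif shared with PMAIP1 could not be looked for. Of the other motifs searched on both strands, the GC box GGGCGG was in 6 of the 8 members and 60.0% of windows. CCAAT was in 5 of the 8 and 33.1%, and TATAAA in 1 of the 8, BCL2L1, and 6.96%. The PMAIP1 window itself holds 4 GC boxes. Here too members are counted by gene, with any entry sufficing, and the percentages by window, so they are not directly comparable.

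BCL2L11, which encodes BIM (chromosome 2, 111120914 to 111168445), and BBC3, which encodes PUMA (chromosome 19, 47220824 to 47232860), are BH3-only proteins that bind every anti-apoptotic member. BCL2L11 had 2 and 0 footprint counts in sgMETTL13 and 0 and 0 in sgControl, where a count of 0 allows up to 0.329 CPM in sgMETTL13 replicate 2, and 0.363 and 0.512 CPM in sgControl replicates 1 and 2, for counting error only. Its mRNA was present, at 26.2 and 24.2 CPM in sgMETTL13 and 24.9 and 31.1 CPM in sgControl (log2 fold change -0.15, SE 0.416). BBC3 had 11 and 9 footprint counts in sgMETTL13 and 10 and 4 in sgControl. BBC3 mRNA read 4.39 and 7.88 CPM in sgMETTL13 and 4.47 and 3.51 CPM in sgControl (log2 fold change 0.62, SE 0.468, edgeR adjusted p = 1.00). The sgMETTL13 range included sgControl replicate 1.

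**Figure D3:**
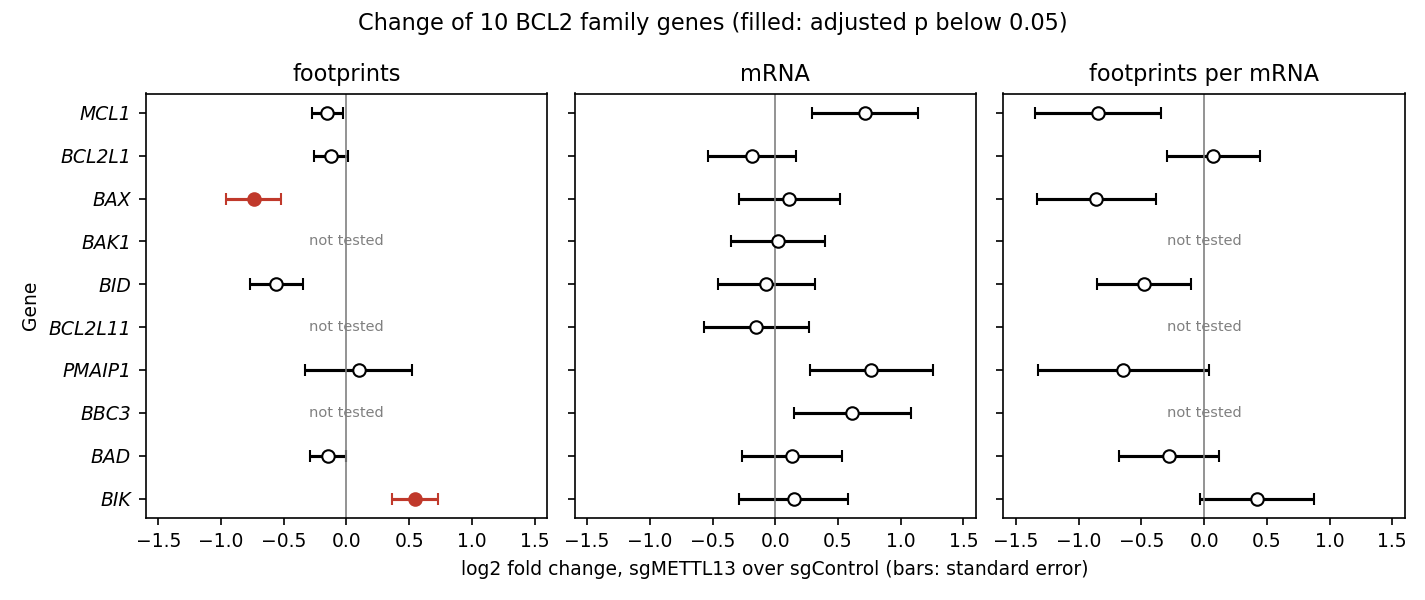
Log2 fold change, sgMETTL13 over sgControl, of the 10 genes in footprints, mRNA and footprints per mRNA. Bars are standard errors, filled points passed the test over all genes, and genes with too few footprints are marked as not tested. BAX at -0.74 and BIK at 0.55 in footprints are the filled points, and the mRNA and footprints per mRNA panels hold none.

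No member was called in mRNA (0 of 10), nor were any of the 12468 genes tested (background 0%). The targeted gene METTL13 was among those not called, at -1.42 in log2 (SE 0.406, edgeR unadjusted p = 0.00457). At an unadjusted p below 0.05 there were 100 genes (0.802%) but no member. DESeq2 and limma voom also called 0 genes in mRNA. No member's mRNA arms were separate, against 12.0% of all genes, 5.11% higher and 6.84% lower. For footprints per mRNA edgeR called 0 of 7 members and 0 of 10446 genes (background 0%), with no member and 346 genes (3.31%) at an unadjusted p below 0.05. There limma voom called 0 genes and DESeq2 5, none of them a member. Estimates ran from -0.86 for BAX through -0.64 for PMAIP1 (SE 0.681), -0.48 for BID (SE 0.377), -0.28 for BAD (SE 0.399) and 0.07 for BCL2L1 (SE 0.370) to 0.42 for BIK, with a median of -0.48 for the members and -0.11 for all genes tested. Between the sgMETTL13 RNA replicates the members went both ways. Replicate 1 was above replicate 2 by 1.24 on the log2(CPM + 0.5) scale for MCL1 and 1.00 for PMAIP1. These differences lay at the 85.5 and 80.4 percentiles of genes tested. Replicate 1 was below replicate 2 for BCL2L1 (-0.40, 31.7 percentile), BAX (-0.62, 12.2), BAK1 (-0.56, 19.0) and BID (-0.31, 37.2). The same held for BBC3 (-0.78, 1.20), BAD (-0.69, 4.36) and BIK (-0.67, 6.26), while BCL2L11 read 0.11 (54.6). Between the sgControl RNA replicates the members' differences ran from -0.43 for BCL2L1 to 0.43 for MCL1.

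Footprints per mRNA differed widely between the members within an arm. The ratio of footprint CPM to mRNA CPM removes most of a gene's own length, though not the part of the transcript that is not translated. In sgMETTL13 the order from high to low was BIK at 0.986, BAD at 0.817, BCL2L1 at 0.682, MCL1 at 0.519, BID at 0.197, BBC3 at 0.171, BAX at 0.153, PMAIP1 at 0.0975, BAK1 at 0.00520 and BCL2L11 at 0.00403. In sgControl it was BAD at 0.995, MCL1 at 0.946, BIK at 0.739, BCL2L1 at 0.653, BAX at 0.280, BID at 0.277, BBC3 at 0.237, PMAIP1 at 0.154 and BAK1 at 0.00611, with BCL2L11 at 0 and at most 0.00759 with 3 counts over the arm. Taking the lowest footprint over the highest mRNA library and the reverse as each gene's range, neighbours overlapped in both arms except at 2 steps, counting BCL2L11 in sgControl at its limit. In sgMETTL13, MCL1 (0.342 to 0.940) lay above BID (0.160 to 0.244), and PMAIP1 (0.0459 to 0.203) lay above BAK1 (0.00206 to 0.00986). In sgControl, BCL2L1 (0.561 to 0.777) lay above BAX (0.195 to 0.390), and PMAIP1 (0.130 to 0.187) lay above BAK1 (0.00591 to 0.00631).

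Among 8459 genes with a mean of at least 10 CPM of mRNA in each arm, BAK1 was at the 0.721 percentile of this ratio in sgMETTL13 and the 0.993 percentile in sgControl, and BCL2L11 was at the 0.532 percentile in sgMETTL13. With its 15 footprints over 4 libraries BAK1 was 1 of 93 such genes with 15 or fewer, and BCL2L11 was 1 of 16 with 2 or fewer. BOK, a BAX relative outside the 10 genes, was also low and is named after its values were seen. It had 8 footprints over both sgMETTL13 libraries and 13 over both sgControl libraries, beside 3135 and 2458 mRNA counts. Low ratios were not limited to BAX relatives. The transcription regulator FOXO3, also named after its values were seen, had 5 and 3 footprints beside 5639 and 3544 mRNA counts. FOXO3 was at the 0.591 percentile in sgMETTL13 and the 0.579 percentile in sgControl, and BOK at 1.38 and 2.57. BAX itself stood at the 14.2 percentile in sgMETTL13 and the 24.3 percentile in sgControl.

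**Figure D4:**
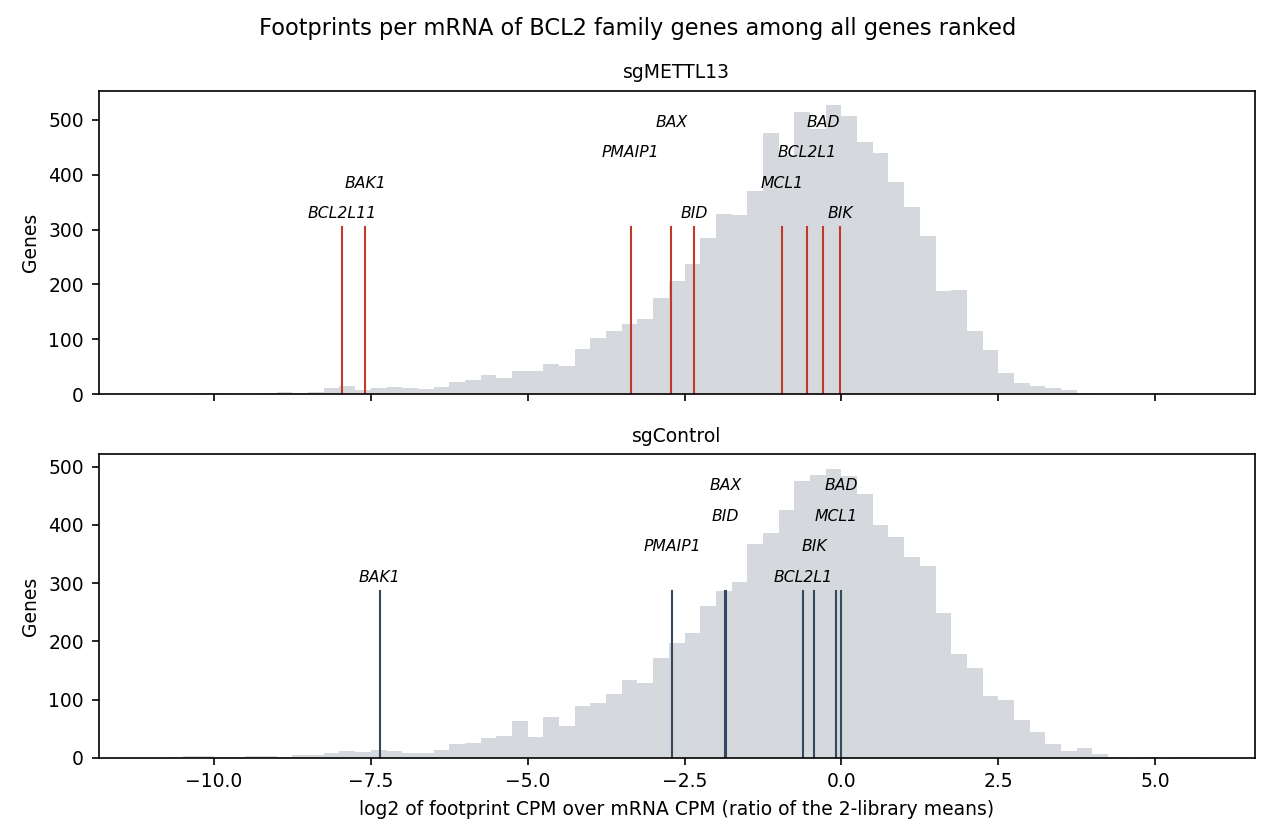
Histogram of the log2 ratio of footprint CPM to mRNA CPM over 8459 genes with at least 10 CPM of mRNA, in sgMETTL13 (top) and sgControl (bottom), with lines at the BCL2 family genes. BBC3 is left out because its mRNA is below that minimum, and BCL2L11 has no line in sgControl because it had 0 footprints there. BAK1 lies in the far left tail in both arms.

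Genes that act around the BCL2 family were read from lists chosen with earlier results of these data known. Beside the background of 21.0% called, 8.94% higher and 12.0% lower, the inhibitor of apoptosis proteins gave 3 that rose and 0 that fell of 5 tested in footprints. Their median log2 fold change was 0.56 against 0.01 for all genes. In footprints per mRNA their median was -0.12, with 2 of the 5 above 0, against -0.11 for all genes. XIAP, which inhibits caspases directly, had 68.6 and 75.7 CPM in sgMETTL13 and 52.3 and 37.6 CPM in sgControl, which gave 0.67 in log2 with an SE of 0.158 (edgeR adjusted p = 0.00310). XIAP mRNA read 161 and 78.1 CPM in sgMETTL13 and 78.6 and 57.0 CPM in sgControl, so its arms overlapped there, and the log2 fold change of 0.82 (SE 0.425) did not pass. BIRC6, a very large ubiquitin ligase of this class, rose by 0.56 (SE 0.128), with 225 and 220.0 CPM in sgMETTL13 and 158 and 144 CPM in sgControl. BIRC5, which encodes survivin, rose by 1.02 (SE 0.256) and BIRC2 read 0.32 (SE 0.142) without passing. BIRC6 was still called whichever footprint library was dropped, while XIAP was not called without sgControl replicate 2 (0.46) and BIRC5 was not called without sgMETTL13 replicate 2 (0.82).

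Of 7 caspases tested 1 rose and 1 fell, with a median of 0.24. CASP8, the initiator of the death receptor arm that cleaves BID, had 33.4 and 28.2 CPM in sgMETTL13 footprints and 50.9 and 46.8 CPM in sgControl footprints (log2 fold change -0.67, SE 0.157, edgeR adjusted p = 0.00320). CASP4, an inflammatory caspase, rose by 0.44 (SE 0.146), with the same fold of 0.44 but no call under DESeq2 (adjusted p = 0.0604), and CASP6, an executioner, read 0.43 (SE 0.228) without passing, as did CASP2, an initiator, at 0.24 (SE 0.151). Without sgMETTL13 replicate 2 CASP4 read 0.31 and CASP8 -0.55 and both lost their calls, as did CASP4 (0.39) without sgControl replicate 2.

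In the death receptor arm 1 gene rose and 1 fell of 10 tested, with a median of -0.04. The receptor gene TNFRSF10B rose by 0.50 (SE 0.144), and RIPK1, a kinase recruited to these receptors, fell, with a log2 fold change of -0.61 (SE 0.170). Among genes that control MCL1 protein turnover 2 rose and 1 fell of 9 tested, with a median of 0.09. FBXW7, a ubiquitin ligase subunit that recognises phosphorylated MCL1, had 11.4 and 10.7 CPM in sgMETTL13 and 21.1 and 25.5 CPM in sgControl (log2 fold change -1.07, SE 0.195, edgeR adjusted p = 0.000325). FBXW7 mRNA read 23.5 and 11.4 CPM in sgMETTL13 replicates 1 and 2, and 13.7 and 11.8 CPM in sgControl. Footprints per mRNA of FBXW7 differed by -1.51 (SE 0.498, edgeR adjusted p = 0.999) and did not pass. That difference was called only without sgMETTL13 RNA replicate 2, which keeps the higher mRNA library, and not without replicate 1. BTRC, another substrate receptor, rose by 0.75 (SE 0.207) and the mitochondrial ligase gene MARCHF5 by 0.72 (SE 0.165), while the deubiquitinase gene USP9X read 0.35 (SE 0.131, edgeR adjusted p = 0.0536). Dropping any single footprint library left FBXW7 called. MARCHF5 (0.47), BTRC (0.57), TNFRSF10B (0.38) and RIPK1 (-0.53) were not called without sgControl replicate 2, BTRC (0.68), TNFRSF10B (0.57) and RIPK1 (-0.66) were not called without sgMETTL13 replicate 2, and TNFRSF10B (0.43) and RIPK1 (-0.56) were not called without sgMETTL13 replicate 1.

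With all 8 libraries in one edgeR model no gene of these lists passed in footprints, and neither did any of the 10714 genes tested. In mRNA no gene of any list passed, nor did any of the 12468 genes tested. Medians there ran from -0.11 for the caspases to 0.82 for the inhibitors of apoptosis proteins, against 0.04 for all genes. In footprints per mRNA no gene of the lists passed either, nor did any of the 10446 genes tested. With sgMETTL13 RNA replicate 2 left out, calls appeared in both measures, in these lists and among all genes tested.

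In 3 further lists no gene passed in footprints with all 4 libraries. Of 12 mitochondrial death partners tested, with a median of -0.05, DIABLO, which blocks inhibitor of apoptosis proteins, read -0.38 (SE 0.146, edgeR adjusted p = 0.0589) and CYCS, the cytochrome c gene, 0.44 (SE 0.168, edgeR adjusted p = 0.0616). Of 10 other BCL2 family genes 8 were in the table and 4 could be tested, with a median of -0.03. BCL2 read -0.33 (SE 0.386) on 15 and 17 footprints in sgMETTL13 and 16 and 14 in sgControl. Of 7 transcription regulators of the family, 6 were tested with a median of -0.06, and MDM2 read 0.24 (SE 0.142), ATF4 -0.21 (SE 0.184) and FOXO1 0.18 (SE 0.166). At an unadjusted p below 0.05 edgeR gave 4 of the mitochondrial partners, 0 of the other family members and 0 of the transcription regulators, beside 34.6% of all genes tested, and DESeq2 and limma voom called 0 in each of the 3 lists. With no filter on low counts DIABLO and CYCS passed, as did USP9X. Without sgMETTL13 replicate 1 CYCS and DIABLO passed, and without sgControl replicate 1 DIABLO, MTCH2 and MDM2 did.

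**Figure D5:**
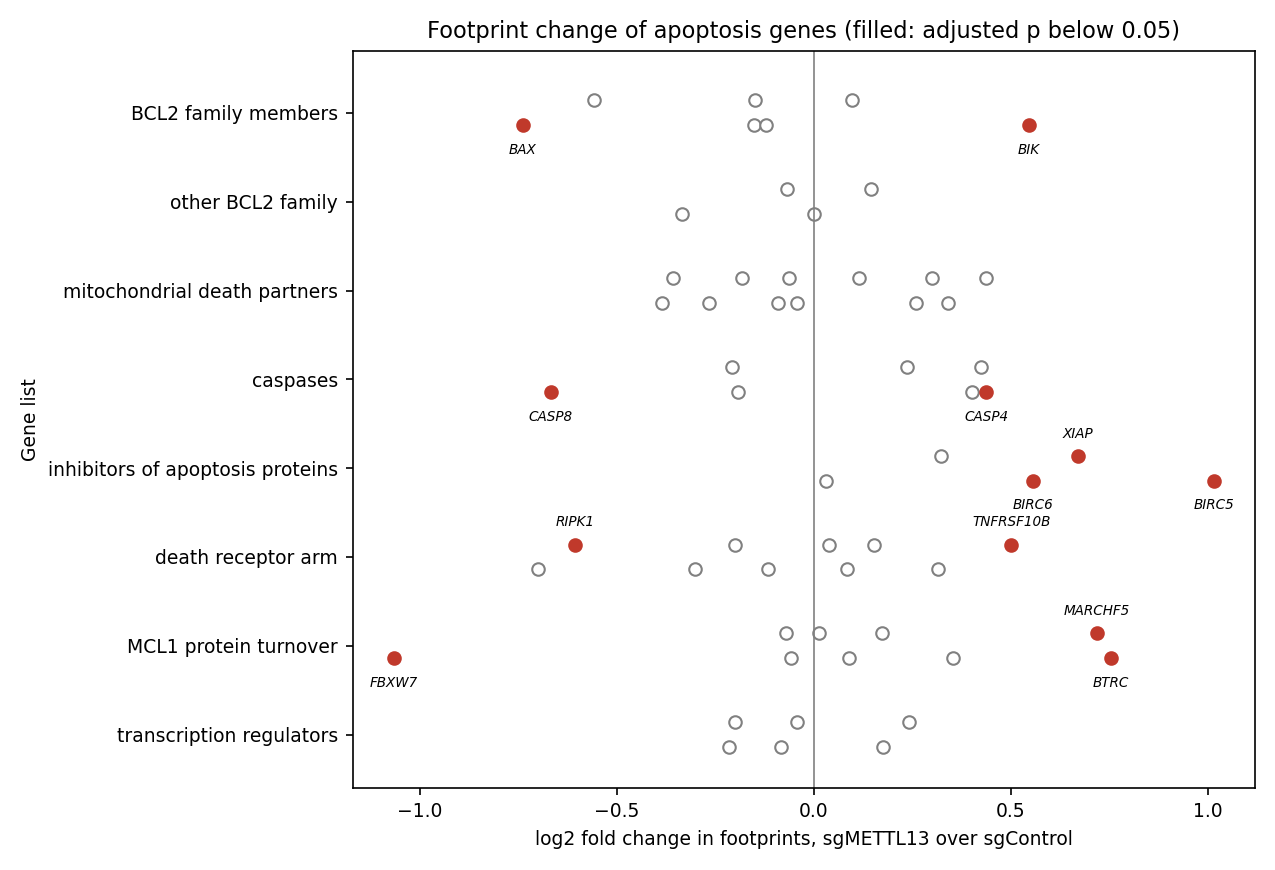
Log2 fold change in footprints, sgMETTL13 over sgControl, for every tested gene of the BCL2 family members and 7 further lists. Each point is a gene, filled and named where it passed the test over all genes. The filled points run from FBXW7 at -1.07 to BIRC5 at 1.02, and 4 of the 8 lists hold filled points of both directions.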

How the data were processed

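The deposited table holds whole-number counts per gene symbol for 8 libraries, with no normalisation. Per the submitters' processing notes, HISAT2 2.0.4, Bowtie 1.2.2, cutadapt 1.18, UMI-tools, featureCounts and hg38 were used, with no role or order given. The annotation, the strand setting, the treatment of reads with several matches and the use of molecular identifiers are not given in the sources used here. Counts were tested with edgeR 4.0.16 (quasi-likelihood F test, TMM within each assay, filterByExpr with a minimum count of 10, Benjamini-Hochberg adjustment over all genes tested) in R 4.3.3. Footprints and mRNA were fitted on their own 4 libraries, and footprints per mRNA as the interaction over 8. The SE is the size of the log2 fold change divided by the root of the F statistic. DESeq2 1.42.0, limma 3.58.1, other scalings, other filters and left-out libraries were alternatives. Scripts were tested on simulated data. The members and gene lists were chosen with earlier results of these data known. All 10 members are described, and from each list up to 4 genes with the smallest footprint p are named. BOK and FOXO3 are named besides, for their low footprint counts. Some genes of the lists are not reported here and were left out of the lists' counts. Limits from 0 counts allow 3 counts and cover counting error only. Symbols, locations and promoters are from RefSeq (GRCh38.p14), and all 14668 symbols matched.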

Additional observations from a re-analysis of the deposited data

How the results depend on the processing

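Of the footprint calls, BAX and BIK passed under limma voom, RLE size factors, library totals, no filter, a stricter filter and the replicate block, and neither passed under DESeq2 or with all 8 libraries in one model, so the count of members called was 0 in both. Over all genes these 2 settings called 1479 and 0 in footprints. The joint model gave 973 genes at an unadjusted p below 0.05. It did not call METTL13 in footprints either (-1.41, SE 0.292, edgeR adjusted p = 0.418). For footprints per mRNA DESeq2 called 5. Leaving out 1 library moved the footprint count between 701 (without sgMETTL13 replicate 2) and 3018 genes (without sgControl replicate 1), with 824 without sgControl replicate 2, and between 0 and 2 members. The mRNA count moved between 0 and 2509 genes (2509 without sgMETTL13 replicate 2, 27 without replicate 1 and 4 without sgControl replicate 2) and between 0 and 2 members (MCL1 and PMAIP1). For footprints per mRNA it moved between 0 and 1400 genes (1400 without sgMETTL13 RNA replicate 2 and 512 without replicate 1) and between 0 and 1 members (MCL1). The cause was not tested. With 1 library in an arm, that library is assumed to vary like the others.

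Among estimates that did not pass, PMAIP1 footprints read -0.0175 under limma voom, and BAK1 mRNA read -0.00989 under limma voom and -0.00658 with the replicate block. Leaving out 1 library changed the sign of some of them. In footprints BCL2L1 ran from -0.28 to 0.0169 and PMAIP1 from -0.54 to 0.56. In mRNA BCL2L1 ran from -0.40 to 0.0718, BAX from -0.23 to 0.46, BAK1 from -0.29 to 0.34, BID from -0.24 to 0.14, BCL2L11 from -0.29 to 0.0153, BAD from -0.26 to 0.51 and BIK from -0.24 to 0.51. In footprints per mRNA BCL2L1 ran from -0.21 to 0.31 and BAD from -0.67 to 0.14.

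The labels do not tie the replicate numbers to cultures. The replicate differences of the arms correlated at -0.195 over genes in footprints and at 0.410 in mRNA, so whether same-numbered mRNA libraries share anything beyond the number is not known. With replicate number as a block edgeR called 1730 genes and 2 members in footprints, and 0 genes in mRNA and in footprints per mRNA, and CASP4 lost its call.

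A share of footprints scaled by coding length was not run, because coding lengths were not used here. BAK1, BCL2L11 and BBC3 had too few footprints for a test, and the biological coefficient of variation was 0.0992 in footprints and 0.337 in mRNA, so mRNA differences are less precise.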
